A study of Mus musculus with 32 samples.

Results

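The measurement described here is the difference between the effect of carbon ions and the effect of photons on gene expression in mouse pancreatic tumours. For each gene, the log2 fold change of irradiated over untreated tumours in the photon arm was subtracted from that in the carbon-ion arm. A value above 0 therefore means a higher response to carbon ions than to photons, and a value below 0 a lower one. All 32 libraries of the series entered, 8 in each of 4 groups, and 20474 of the 55103 genes in the table had enough reads to be tested.

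The tumours were grown from KPC36, a mouse pancreatic cancer line, and every library was labelled as malignant tumour tissue. KPC is the usual name for a family of genetic mouse models of pancreatic ductal adenocarcinoma, but the labels used here give no genotype of KPC36, no strain, sex or age of the animals and no dose. The groups were tumours given carbon ions (treatment label carbon_treated), their untreated controls (carbon_ctrl), tumours given photons (photon_treated) and their untreated controls (photon_ctrl). Tissue was taken at days 4 and 7 after treatment according to the design text, and which day a given library belongs to is not in the labels used here. All groups rest on a single tumour line.

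Carbon ions are heavy charged particles that release most of their energy at the end of their track and leave dense, clustered DNA damage, whereas photons spread sparser damage along their path. Both kinds of damage activate p53 and can trigger interferon signalling when DNA fragments reach the cytosol. Pancreatic tumours also hold fibroblasts, macrophages, neutrophils and vessels, and a bulk library mixes the RNA of all of them. In such a mixture, fewer cells of a type and less RNA per cell cannot be told apart.

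Library totals ranged from 13891863 to 71645903 estimated counts, and the ranges of all 4 groups overlapped. On the scale of log2 CPM (counts-per-million of the library total), the within-group SD of a typical (median) gene was 0.29 for carbon-ion controls, 0.391 after carbon ions, 0.312 for photon controls and 0.324 after photons. The letter D opened the titles of 7 libraries, 4 of them controls and 3 irradiated tumours of the carbon-ion arm, and what it stands for is not stated. The labels do not say how animals map to libraries, so the p-values below measure the spread between these libraries. Epithelial keratins of the tumour cells were abundant in every group, with Krt8 at a mean of 1248 CPM in the carbon-ion controls, 1234 after carbon ions, 1079.6 in the photon controls and 1032 after photons.

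The beams differed in their effect on 16 genes, 7 with a higher and 9 with a lower response to carbon ions, at an edgeR quasi-likelihood adjusted p under 0.05. These were 0.0781% of the 20474 genes tested, or 0.0342% above and 0.0440% below 0. Genes with roles in chromatin repression (Cbx7), granulocyte differentiation (Cebpe), guanine nucleotide exchange (Arhgef28), glycogen breakdown (Phka2), lysosomal proteolysis (Ctsc), NF-kB feedback (Tnip3), pyroptosis (Gsdme) and vitamin D breakdown (Cyp24a1) were among them. Absolute differences of the log2 fold changes ran from 0.54 to 2.40. In all, 2670 genes or 13.0% had an unadjusted p under 0.05, the 16 included, and 1601 of those 2670 (7.82% of all tested) were above 0. Across all tested genes the median difference was 0.02 and 52.0% lay above 0. The median of all genes was -0.04 under upper quartile scaling, a setting that lowered every list median as well, and -0.02 without a filter.

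In these 16 genes the larger effects were in the photon arm. The absolute log2 fold change had a median of 0.70 after photons and 0.19 after carbon ions, and it was larger after photons in 15 of 16 genes, against 64.9% of all tested genes. The effects had opposite signs in 14 of 16, against 51.6% of all tested genes; a gene is more likely to be selected on the difference when its effects have opposite signs. CPM ranges of irradiated and untreated tumours did not overlap in the photon arm for 9 of the 16 and in the carbon-ion arm for 0, beside 0.474% and 0.0293% of all tested genes. The 16 were selected on the difference of effects from these same values. Their sizes and shares therefore only describe them and lend the calls no further weight. Every carbon-ion effect among the 16 had an adjusted p of at least 0.344. Over all genes, 0 passed the threshold in the carbon-ion arm (0%, smallest adjusted p 0.208, 1177 genes or 5.75% at an unadjusted p under 0.05, and 5 genes past the threshold without carbon-ion irradiated replicate 2), and 781 (3.81%) passed in the photon arm.

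**Figure D1:**
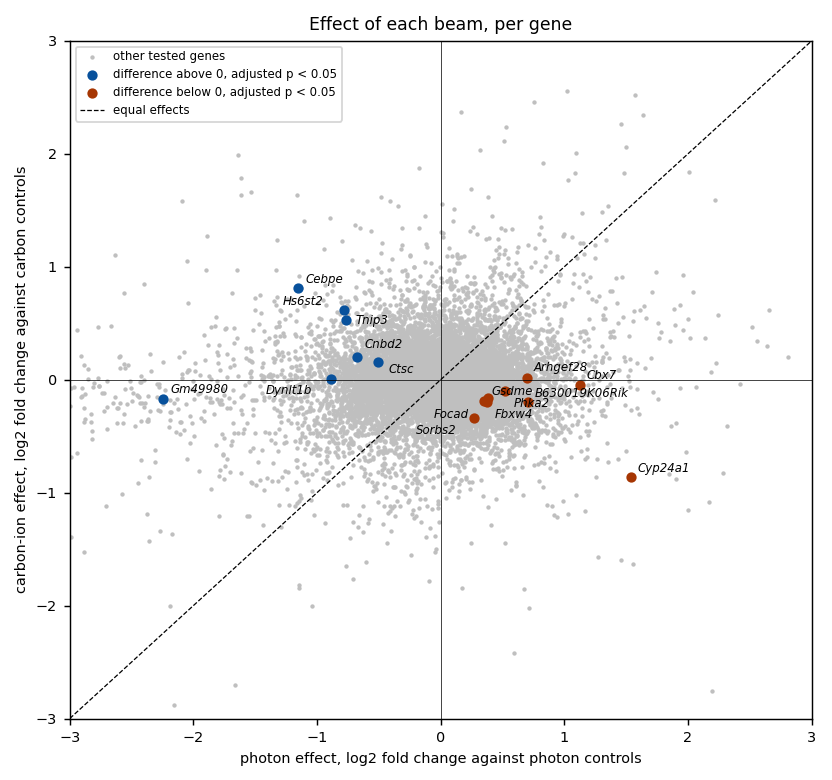
Log2 fold change after photons (x axis) and after carbon ions (y axis), each against the untreated controls of its arm, for every tested gene; points on the dashed line have equal effects, and 52 genes lie outside the axes. The 7 genes with a higher response to carbon ions (blue) all lie left of 0 on the photon axis and the 9 with a lower response (brown) all lie right of it, while their spread on the carbon-ion axis is smaller.

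Since the difference of effects can also be read as the gap between irradiated groups less the gap between control groups, the level of each group matters. The group whose mean log2 CPM lay farthest from the mean of the other groups was the photon-irradiated group in 8 of the 16 genes, the photon controls in 7 and the carbon-ion irradiated group in 1 (Sorbs2). The carbon-ion controls were the odd group in 0. Over all tested genes these shares were 31.4%, 32.3%, 21.9% and 14.4% in the same order. As the 16 were selected on these same values, the comparison is a description only. Controls of both arms, which received no radiation, differed from each other at 1871 genes (9.14%) and the irradiated groups at 1041 (5.08%). All photon control titles carry lower numbers than the photon-irradiated titles, and what these numbers record is not stated. If they record an order of handling, its influence and that of photons cannot be told apart.

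Cbx7, a chromodomain subunit of Polycomb repressive complex that reads a repressive histone mark, had the smallest adjusted p. It is annotated at chr15:79915807-79971119 on the minus strand of GRCm38. Its lowest, median and highest CPM were 29.1, 40.6 and 46.7 in the carbon-ion controls and 26.3, 41.2 and 49.4 after carbon ions. In the photon controls they were 12.9, 16.6 and 25.05, and after photons 26.9, 38.1 and 44.8. The photon controls thus lay below every library of each other group, while those groups overlapped throughout. The log2 fold change was -0.04 ± 0.13 (SE) after carbon ions and 1.12 ± 0.13 after photons, and their difference of -1.17 ± 0.18 had an edgeR adjusted p of 0.00664. Apobec3 overlaps Cbx7 on the opposite strand and had a difference of -0.13 with an adjusted p of 0.618.

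Of 24 tested subunits of Polycomb complexes, Cbx7 was the one that passed. The list's median difference was 0.05 (0.0018 to 0.06 with a library left out), with 13 of 24 members above 0, and it was -0.01 under upper quartile scaling, beside -0.04 for all genes. Cbx6, another chromodomain subunit, had a difference of -0.41 ± 0.15 with an adjusted p of 0.256. Rnf2, the catalytic ubiquitin ligase of the complex, had 0.35 ± 0.15 with an adjusted p of 0.328.

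Arhgef28, Phka2 and Focad shared with Cbx7 that the photon controls had the lowest mean, but unlike Cbx7 they had the highest mean after photons. Arhgef28, a guanine nucleotide exchange factor of small GTPases (chr13:97899469-98206439, minus strand), spanned 62.1 to 87.6 CPM with a median of 73.4 in the carbon-ion controls, and 58.8 to 92.5 with a median of 72.9 after carbon ions. Photon controls spanned 49.1 to 68.9 CPM with a median of 57.7, and photon-irradiated tumours 80.0 to 104 with a median of 94.4. The photon groups did not overlap, whereas the carbon-ion groups covered nearly the same range. Its log2 fold changes were 0.02 ± 0.08 and 0.69 ± 0.08 in the carbon-ion and the photon arm, and the difference of -0.68 ± 0.12 had an adjusted p of 0.0119.

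Phka2, the liver-type regulatory subunit of phosphorylase kinase, the enzyme that switches on glycogen breakdown, lies at chrX:160502166-160598878 on the plus strand. In carbon-ion controls it spanned 28.6 to 35.4 CPM with a median of 31.7, and after carbon ions 25.8 to 34.7 with a median of 28.3. Photon controls spanned 20.5 to 28.3 CPM with a median of 22.6, and photon-irradiated tumours 26.5 to 37.5 with a median of 33.0. Every photon-irradiated library was above the photon control median, although the ranges met at their edges. Effects of -0.10 ± 0.08 after carbon ions and 0.52 ± 0.08 after photons gave a difference of -0.62 ± 0.11 with an adjusted p of 0.0165. Of 14 tested genes of glycogen breakdown and synthesis, Phka2 was the one called, and 8 of 14 lay above 0 with a median of 0.13, which turned to -0.0068 without carbon-ion irradiated replicate 4 and to -0.04 with the muscle score as a covariate. Pygl, the liver glycogen phosphorylase that this kinase activates, had a difference of the opposite sign at 0.94 ± 0.26, with an adjusted p of 0.116.

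Focad, which encodes the focal adhesion protein focadhesin (chr4:88094629-88411011, plus strand), had means of 39.5 ± 3.58 CPM (SD, n = 8) in the carbon-ion controls, 35.3 ± 4.10 after carbon ions, 30.8 ± 2.87 in the photon controls and 40.1 ± 3.10 after photons. The difference of -0.54 ± 0.10 had an adjusted p of 0.0320. Its overlapping neighbour Hacd4 had a difference of 0.41 with an adjusted p of 0.375.

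Cebpe had log2 fold changes of opposite sign in the arms. It encodes C/EBP epsilon, the transcription factor of late granulocyte maturation, at chr14:54710360-54712174 on the minus strand, and its reads were few, from 4.9 to 70.7 estimated counts per library. The lowest, median and highest CPM were 0.384, 0.528 and 1.29 in the carbon-ion controls and 0.595, 1.23 and 1.65 after carbon ions. They were 0.629, 0.828 and 1.13 in the photon controls and 0.257, 0.357 and 0.527 after photons. All photon-irradiated libraries lay below all photon controls and below all carbon-ion irradiated libraries, while the carbon-ion groups overlapped. Log2 fold changes of 0.81 ± 0.24 after carbon ions (adjusted p of 0.398) and -1.15 ± 0.25 after photons (adjusted p of 0.0106) gave a difference of 1.96 ± 0.34 with an adjusted p of 0.0119.

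The neutrophil markers, of which Cebpe is one, all had differences above 0. Of 14 tested, 1 was called, 9 had an unadjusted p under 0.05 beside 13.0% of all tested genes, and the median was 0.86 beside 0.02. The median effect was 0.14 after carbon ions and -0.74 after photons. Retnlg, a secreted protein of neutrophils, had a difference of 3.16 ± 0.76 and Trem1, a receptor that amplifies neutrophil and monocyte activation, 0.98 ± 0.29, with adjusted p values of 0.0739 and 0.140. Retnlg had means of 1.08 and 2.60 CPM in the carbon-ion controls and after carbon ions, and of 2.04 and 0.523 CPM in the photon controls and after photons. Csf3r, the receptor for granulocyte colony-stimulating factor, and Cxcr2, the main chemokine receptor of neutrophils, had differences of 0.69 ± 0.27 and 0.81 ± 0.29, again without passing (adjusted p values of 0.278 and 0.219). The mean log2 CPM over the list was 2.09 ± 0.34 (SD, n = 8) and 2.34 ± 0.19 in the carbon-ion controls and irradiated tumours, and 2.28 ± 0.34 and 1.50 ± 0.37 in the photon controls and irradiated tumours. The photon-irradiated group was thus the low one. With each library left out in turn, the median of the list ran from 0.73 to 0.97.

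Macrophage markers had differences in the same direction, without a call. Of 17 tested, 16 lay above 0, 10 had an unadjusted p under 0.05, beside 13.0% of all tested genes, and 0 passed, with a median difference of 0.55. Median effects were 0.22 after carbon ions and -0.37 after photons. Msr1, the macrophage scavenger receptor, came nearest to the threshold. It spanned 20.6 to 35.6 CPM with a median of 27.03 in the carbon-ion controls and 27.6 to 54.5 with a median of 46.1 after carbon ions. In the photon controls it spanned 16.7 to 52.1 CPM with a median of 29.5, and after photons 17.4 to 30.7 with a median of 21.6. The carbon-ion irradiated tumours were highest in median, and the ranges of irradiated and control libraries overlapped in both arms. Msr1 had a difference of 1.21 ± 0.26 with an adjusted p of 0.0564. Lyz2, Csf1r and Cd68, which mark macrophages broadly, had differences of 0.84, 0.59 and 0.85 with adjusted p values of 0.123, 0.197 and 0.211.

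The macrophage list score differed little between the control groups, at 5.42 ± 0.24 and 5.43 ± 0.37 mean log2 CPM (SD, n = 8) in the carbon-ion and photon arm. It was 5.65 ± 0.30 after carbon ions and 5.02 ± 0.41 after photons. When this score was added to the model as a covariate, an alternative chosen after seeing the data, 0 of the 16 genes passed, 0 genes passed in all, and 1298 had an unadjusted p under 0.05. Cbx7 then had a difference of -1.12 with an adjusted p of 0.112 and Cebpe one of 1.63 with an adjusted p of 0.335. All 16 kept their sign, at 0.659 to 0.958 times their size without the score. The score comes from these same libraries and itself differed between the groups, so this fit cannot show why the calls were lost. With the score of fibroblast and matrix genes as the covariate, also added after seeing the data, 6 genes passed, among them 5 of the 16.

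Ctsc, or cathepsin C, activates the serine proteases of neutrophil and cytotoxic granules (chr7:88278085-88310888, plus strand). Its lowest, median and highest CPM were 214, 249 and 280.5 in the carbon-ion controls and 218, 276 and 333 after carbon ions. They were 241, 292 and 341 in the photon controls and 143, 211 and 243 after photons. All photon-irradiated libraries lay below the photon control median, with ranges that touched by a narrow margin, and the carbon-ion groups overlapped. Ctsc had a difference of 0.66 ± 0.13 with an adjusted p of 0.0320, from effects of 0.15 ± 0.09 and -0.51 ± 0.09. Of 27 tested lysosomal genes, Ctsc was the one called, 10 had an unadjusted p under 0.05, all of them above 0, beside 7.82% of all tested genes, and 23 lay above 0 with a median of 0.26. Ctsz and Ctsb, further cathepsins, had differences of 0.53 and 0.58 with adjusted p values of 0.101 and 0.105. Npc2, which moves cholesterol out of the lysosome, had 0.35 with an adjusted p of 0.134.

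Tnip3 binds the ubiquitin-editing enzyme Tnfaip3 and restrains NF-kB signalling (chr6:65525313-65634040, plus strand). Carbon-ion controls spanned 6.20 to 12.6 CPM with a median of 9.81, and carbon-ion irradiated tumours 6.37 to 19.1 with a median of 14.1. In the photon controls it ran from 10.4 to 18.6 CPM with a median of 14.5, and after photons from 5.61 to 10.6 with a median of 9.59. Carbon-ion irradiated tumours and photon controls thus shared the higher median, and the carbon-ion irradiated range was the wider. The effects of 0.53 ± 0.18 and -0.77 ± 0.18 gave a difference of 1.29 ± 0.25 with an adjusted p of 0.0320. Most NF-kB feedback genes had smaller differences, and the 18 tested had a median of 0.11 (0.06 to 0.14 with a library left out) with 13 above 0. AA467197 had a difference of 1.32 ± 0.36 with an adjusted p of 0.105, and Nfkbia, an inhibitor of NF-kB, 0.46 ± 0.17 with 0.244.

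Gsdme, or gasdermin E, forms membrane pores after cleavage by executioner caspases and can turn apoptosis into pyroptosis (chr6:50188888-50263862, minus strand). The carbon-ion controls spanned 35.5 to 51.6 CPM with a median of 42.3, and the carbon-ion irradiated tumours 31.1 to 41.1 with a median of 37.9. The photon controls spanned 30.9 to 39.9 CPM with a median of 34.3 and did not overlap the photon-irradiated tumours, at 40.5 to 51.8 with a median of 43.9. All carbon-ion irradiated libraries lay below their control median, whereas the photon-irradiated ones lay above theirs. Gsdme had a difference of -0.54 ± 0.11 with an adjusted p of 0.0320. Of the 15 tested genes of pyroptosis and necroptosis, 12 lay above 0, opposite to Gsdme, with a median of 0.28. Casp1, the inflammatory caspase, and Nlrp3, its inflammasome sensor, had differences of 0.98 ± 0.36 and 0.76 ± 0.29, with adjusted p values of 0.234 and 0.259.

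Dynlt1b, a light chain of the dynein motor (chr17:6430112-6436296, plus strand), had photon-irradiated tumours apart from all others. It ran from 23.3 to 35.2 CPM with a median of 28.1 in the carbon-ion controls, from 21.6 to 42.3 with a median of 27.9 after carbon ions and from 21.8 to 33.6 with a median of 27.3 in the photon controls. After photons it ran from 10.1 to 19.4 with a median of 14.8, below every other library. The effect was 0.00 ± 0.13 after carbon ions and -0.89 ± 0.13 after photons, and the difference of 0.90 ± 0.18 had an adjusted p of 0.0384. Dynlt1b shares near-identical sequence with Dynlt1a, Dynlt1c and Dynlt1f, whose differences were 0.58, -0.09 and 0.37 and did not pass, so the division of reads among these copies is uncertain.

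Hs6st2, which adds sulfate groups to heparan sulfate chains of the cell surface (chrX:51387212-51681856, minus strand), had means of 13.2 ± 4.41 CPM (SD, n = 8) in the carbon-ion controls, 20.2 ± 6.56 after carbon ions, 22.3 ± 4.71 in the photon controls and 12.9 ± 3.36 after photons. The effects had opposite signs, at 0.62 ± 0.20 after carbon ions and -0.79 ± 0.20 after photons. Their difference of 1.40 ± 0.29 had an adjusted p of 0.0384. Cyp24a1, the enzyme that inactivates the hormone form of vitamin D (chr2:170482708-170497145, minus strand), had the largest absolute difference of the 16, -2.40 ± 0.49, with an adjusted p of 0.0384. It rested on 1.3 to 24.3 estimated counts per library. Its CPM lay between 0.115 and 0.717 with a median of 0.339 in the carbon-ion controls, from 0.0324 to 0.362 with 0.214 after carbon ions, between 0.0765 and 0.225 with 0.140 in the photon controls and between 0.270 and 0.522 with 0.466 after photons. The photon groups did not overlap, and the carbon-ion groups did.

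Sorbs2, an adaptor protein of the actin cytoskeleton (chr8:45507788-45827906, plus strand), was the one gene of the 16 whose carbon-ion effect was the larger. Its lowest, median and highest CPM were 144, 150.4 and 195 in the carbon-ion controls and 103, 124.1 and 147 after carbon ions, and these ranges met at their edges. They were 111, 125 and 164 in the photon controls and 136, 157 and 202 after photons, where the overlap was wider. The effects were -0.34 ± 0.09 (adjusted p of 0.344) and 0.27 ± 0.09 (adjusted p of 0.0757), so neither passed alone, and the difference of -0.60 ± 0.13 had an adjusted p of 0.0405. Cnbd2, a cyclic nucleotide-binding protein (chr2:156312299-156375638), had a difference of 0.88 ± 0.18, and Fbxw4, an F-box adaptor of ubiquitin ligases (chr19:45578254-45660312), one of -0.57 ± 0.12, each with an adjusted p of 0.0384. Cnbd2 did not overlap between the photon groups, at 5.63 to 7.95 CPM in the controls and 3.19 to 4.72 after photons. The remaining called genes had no settled name. Gm49980 had a difference of 2.08 ± 0.34 with an adjusted p of 0.00818, its mean being 0.714 CPM after photons and 2.33 to 3.43 CPM in the other groups, and B630019K06Rik on chromosome X one of -0.90 ± 0.18 with an adjusted p of 0.0384.

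**Figure D2:**
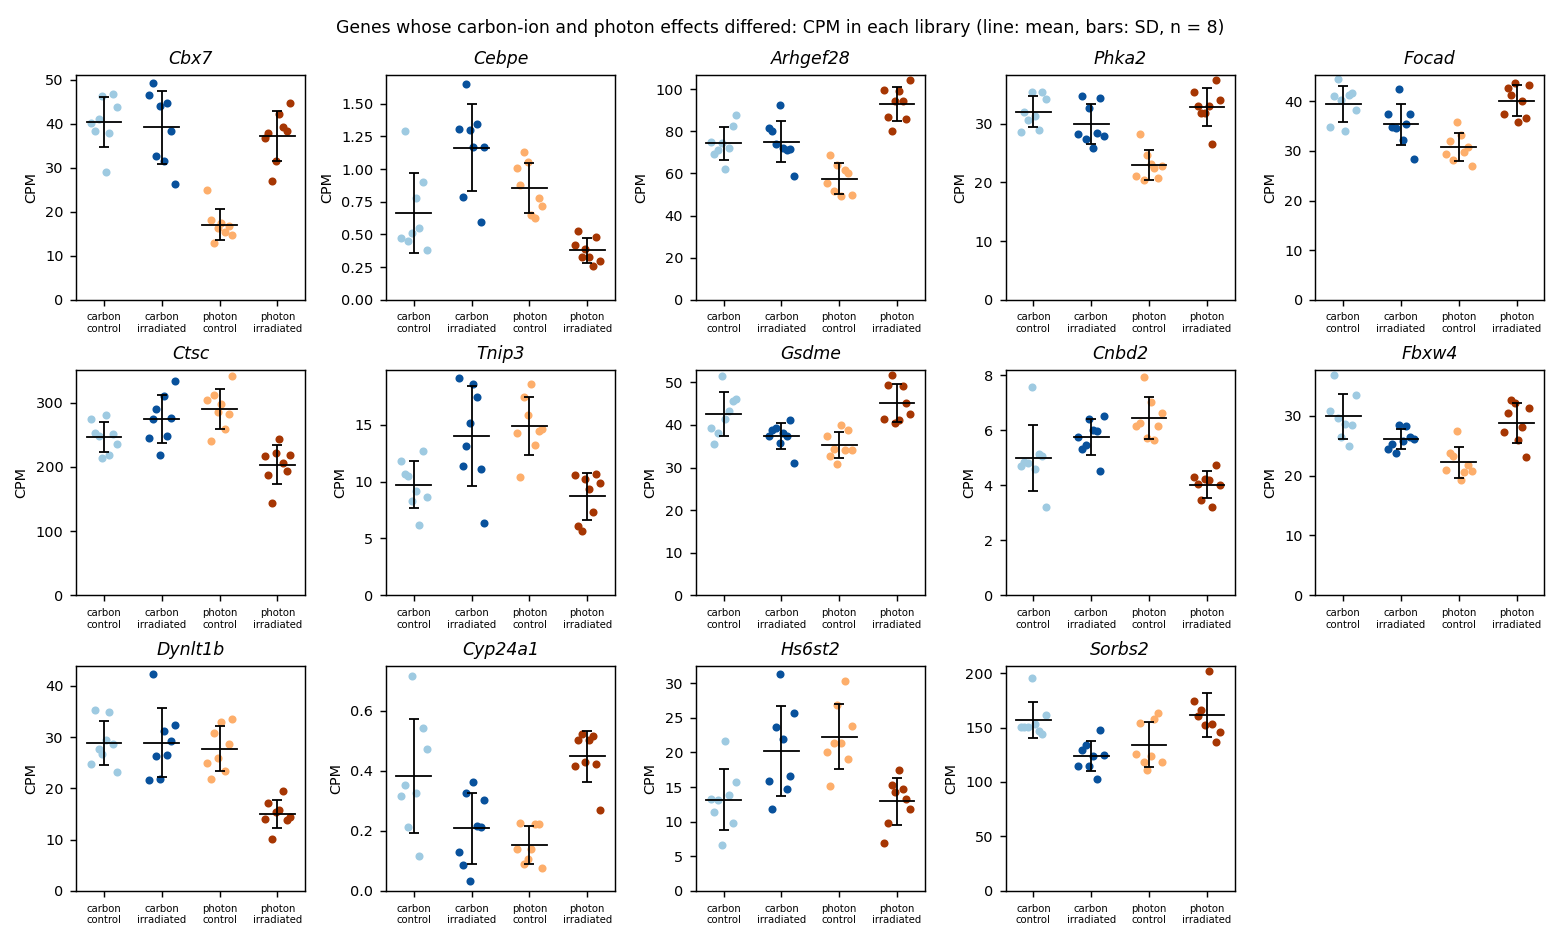
CPM per library (points) for the 14 called genes with a settled name, in the 4 groups of 8 libraries; lines are group means and bars the SD, and every y axis starts at 0. In Cbx7 the photon controls (12.9 to 25.05 CPM) lie below all other libraries, and in Dynlt1b the photon-irradiated tumours (10.1 to 19.4 CPM) do.

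How firmly a gene passed depended on single libraries. Cbx7, Gm49980, Cebpe, Arhgef28 and Phka2 passed in all 32 fits that each left out a library, and the other 11 passed in 8 to 18 of them. The number of genes past the threshold ran from 5 to 108 over these fits. It was 108 without photon control replicate 2, 101 without carbon-ion irradiated replicate 2 and 70 without carbon-ion control replicate 5. It stayed within 1.5 times 16 in 7 of 32 fits and fell below that in 19. Under upper quartile scaling of library sizes, 94 genes passed, 22 higher and 72 lower, and all 16 were among them.

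**Figure D3:**
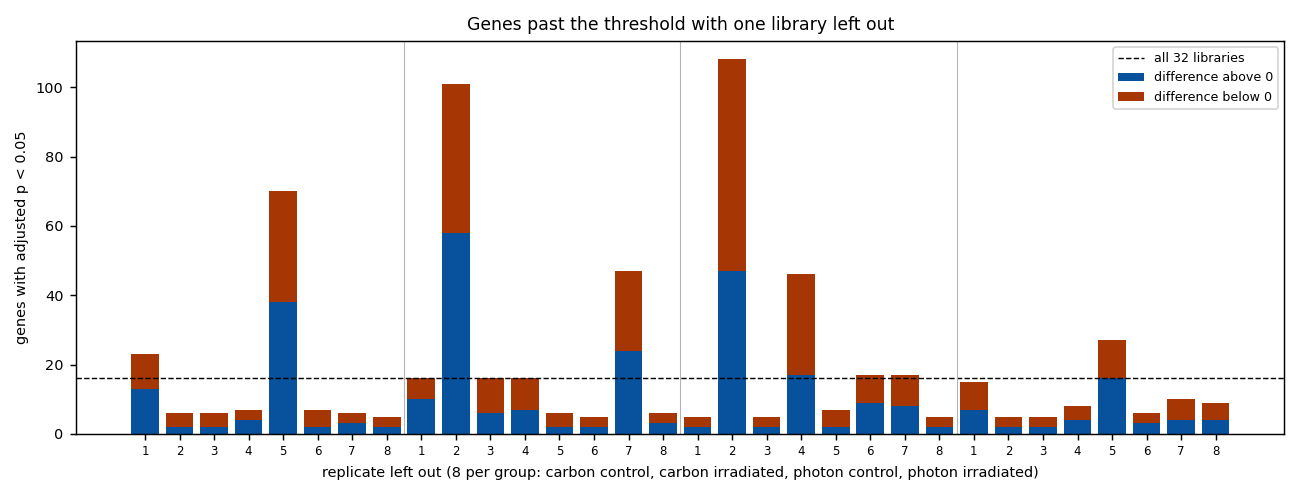
Number of genes with an adjusted p under 0.05 for the difference of effects (y axis) when the library on the x axis is left out, split into genes above 0 (blue) and below 0 (brown); the dashed line is the count of 16 with all 32 libraries. The bars reach 108 without photon control replicate 2 and fall to 5 without others such as carbon-ion control replicate 8.

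Among the next 16 genes with a settled name by p, adjusted p values ran from 0.0515 to 0.0582, with 10 above and 6 below 0, and none of them passed. Camkk2, a kinase that activates the energy sensor AMPK, had a difference of -0.50 ± 0.10 with an adjusted p of 0.0515. Il33, an alarmin released by damaged epithelium and fibroblasts, was highest in the photon controls, with a median of 201 CPM against 107 in the carbon-ion controls, 143 after carbon ions and 125 after photons, and a difference of 1.03 ± 0.23. Gpr55, a lipid-sensing receptor, and Mmp25, a membrane-anchored metalloproteinase of leukocytes, had differences of 1.38 ± 0.30 and 1.24 ± 0.28 and were lowest after photons, with means of 1.36 and 3.76 CPM. Raet1e, a stress ligand for the natural killer receptor NKG2D, had a difference of 1.0 ± 0.22 and separated the photon groups, at 6.22 to 9.47 CPM in the controls and 2.87 to 5.66 after photons.

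Il5ra, Wt1, Hoxa4 and Sall3 had the largest absolute differences of these 16. Il5ra, a receptor subunit of eosinophils, had a difference of 3.24 ± 0.69 with an adjusted p of 0.0564. Photon controls were its highest group, with replicate 2 at 2.25 CPM and the others at 6.53 to 16.8 CPM. Its carbon-ion irradiated mean of 5.63 CPM included replicate 3 at 24.0 CPM and replicate 8 at 8.32 CPM, beside a median of 2.31. Wt1, a transcription factor of mesothelium, and Hoxa4, a homeobox factor, had differences of 2.46 ± 0.54 and 2.37 ± 0.51 and were highest in the photon controls, with means of 1.57 and 0.893 CPM. Sall3, a zinc finger repressor, had -2.29 ± 0.51. The rest included Tbc1d16 (-0.87), Vars2 (-0.45), Huwe1 (-0.51), Arl6ip1 (0.47), Srpk2 (-0.57) and Msr1, given above.

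The other gene lists are given as counts and medians with no test. Interferon-stimulated genes, which are switched on by type I interferon, had a median effect of 1.26 after carbon ions and 0.79 after photons. Their median difference was 0.63, with 21 of 23 above 0, 3 at an unadjusted p under 0.05 (all above 0, beside 7.82% of all tested genes) and 0 called. Xaf1, a proapoptotic interferon target, had effects of 1.17 and 0.47 and a difference of 0.70 ± 0.33 with an adjusted p of 0.365. Oas1a and Oas2, which sense double-stranded RNA, had differences of 1.10 ± 0.52 and 1.51 ± 0.74 with adjusted p values of 0.370 and 0.380. The spread was wide within both irradiated groups, with list scores from 1.98 to 4.70 mean log2 CPM after carbon ions and from 1.52 to 4.21 after photons. Without carbon-ion irradiated replicate 8 the median difference of the list was 0.34.

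For MHC class I presentation, 11 of 11 genes lay above 0 with a median of 0.62 and 0 called, and the median effect was 0.24 after carbon ions and -0.21 after photons. Without carbon-ion irradiated replicate 8 the median difference was 0.40. B2m, the invariant chain of MHC class I, had a median of 184 CPM in the carbon-ion controls, 256 after carbon ions, 192 in the photon controls and 172 after photons. B2m had a difference of 0.64 ± 0.23 with an adjusted p of 0.229. MHC class II presentation had medians below 0 in both arms, -0.18 after carbon ions and -0.62 after photons, a median difference of 0.41 and 7 of 7 above 0. Among 20 chemokines and their receptors, 17 lay above 0 with a median of 0.60. Ccr1, a receptor that draws monocytes and neutrophils, came nearest with a difference of 0.76 ± 0.20 and an adjusted p of 0.0958. Of 14 immune checkpoint genes 13 lay above 0 with a median of 0.51, and of 18 T cell markers 15 did with a median of 0.50, which was 0.83 in the M-titled libraries alone. T cell genes were scarce: Cd2, an adhesion receptor of T cells, had means of 0.433, 0.571, 1.01 and 0.324 CPM in the carbon-ion controls, after carbon ions, in the photon controls and after photons, and a difference of 2.02 ± 0.60 with an adjusted p of 0.133.

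In the stromal lists the photon controls had the highest mean score. All 17 fibroblast and matrix genes lay above 0 with a median of 0.54, from a median effect of 0.01 after carbon ions and -0.42 after photons, and 0 were called. Tagln, a contractile protein of myofibroblasts, and Sparc, a matrix glycoprotein, each had a difference of 0.68, with adjusted p values of 0.148 and 0.223. The list score was 8.34 ± 0.35 and 8.38 ± 0.42 mean log2 CPM (SD, n = 8) in the carbon-ion controls and irradiated tumours, 8.82 ± 0.32 in the photon controls and 8.38 ± 0.31 after photons. For 12 vessel endothelial markers the median was 0.37 with 12 above 0, and 0.23 without photon control replicate 3 or carbon-ion irradiated replicate 3. Emcn, an endothelial sialomucin, had 0.71 with an adjusted p of 0.101. Tgfb1, the matrix-inducing cytokine, had a difference of 0.53 with an adjusted p of 0.105, and 12 of 14 genes of its pathway lay above 0 with a median of 0.38, which was lowest, 0.23, without photon control replicate 3 and also fell by over 1.5 times without carbon-ion irradiated replicates 4 and 8.

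Proliferation genes also lay mostly above 0. Mitotic genes had a median of 0.39 with 17 of 18 above 0, and DNA replication genes 0.25 with 17 of 18 (0.16 without photon control replicate 5), and 0 of either list were called. Median effects were -0.17 and -0.56 for mitosis and -0.06 and -0.36 for replication after carbon ions and photons. Tpx2, a spindle assembly factor, had means of 34.6 and 34.7 CPM in the carbon-ion controls and irradiated tumours and 51.5 and 29.4 CPM in the photon ones, with a difference of 0.81 ± 0.31 and an adjusted p of 0.266.

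Genes of the direct damage response had 0 members called. The 20 p53 targets had a median difference of 0.07 (0.04 to 0.10 with a library left out), with 14 above 0. It was 0.01 with 11 above 0 under upper quartile scaling, beside -0.04 for all genes. Of the 20, 1 had an unadjusted p under 0.05, above 0 beside 7.82% of all tested genes, and 0 were called. Median effects were 0.14 after carbon ions and 0.09 after photons. Ccng1, a cell cycle regulator induced by p53, had effects of 0.31 ± 0.10 after carbon ions and 0.01 ± 0.10 after photons, and their difference of 0.30 ± 0.14 had an adjusted p of 0.367. Eda2r, a death receptor and p53 target, had a difference of 0.69 ± 0.35 with an adjusted p of 0.396. Genes of double-strand break repair had a median of 0.14 (0.07 to 0.17 with a library left out) with 15 of 21 above 0. Brca2, a mediator of homologous recombination, was the one member at an unadjusted p under 0.05, beside 13.0% of all tested genes. Brca2 had a difference of -0.61 ± 0.19 and an adjusted p of 0.170. Hypoxia and glycolysis genes had nearly equal median effects of 0.59 and 0.56 and a median difference of 0.14, which ran from -0.13 without carbon-ion irradiated replicate 4 to 0.34 without photon-irradiated replicate 6.

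Markers of surrounding tissue and of epithelium had 0 members called. All 18 skeletal muscle markers lay above 0 with a median difference of 2.96 and 0 called. The median was 1.42 in the M-titled libraries alone, with 16 of 18 above 0, and 1.90 without carbon-ion irradiated replicate 3. The 4 with an unadjusted p under 0.05, all above 0 beside 7.82% of all tested genes, included Ttn and Tnnc2. The muscle score was 3.27 ± 2.67, 3.23 ± 2.52 and 3.32 ± 2.58 mean log2 CPM (SD, n = 8) in the carbon-ion controls, after carbon ions and in the photon controls. After photons it was 0.22 ± 2.17, and the ranges of all groups overlapped, from -1.94 to 6.72 in all. With this score as a covariate 7 genes passed, among them 6 of the 16. The epithelial markers had a median difference of 0.02 with 8 of 15 above 0, which ran from -0.14 to 0.08 with a library left out and was -0.03 under upper quartile scaling, beside -0.04 for all genes, and their score was 5.33, 5.47, 4.84 and 5.12 in the carbon-ion controls, after carbon ions, in the photon controls and after photons. With the epithelial score as a covariate 7 genes passed, all of them among the 16. Adipocyte markers had a median of -0.72 with 1 of 9 above 0, but it was 1.03 without carbon-ion control replicate 5, -1.97 without carbon-ion irradiated replicate 8 and 1.04 with the muscle score as a covariate. Only 1 of 11 pancreatic acinar markers had enough reads to be tested.

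**Figure D4:**
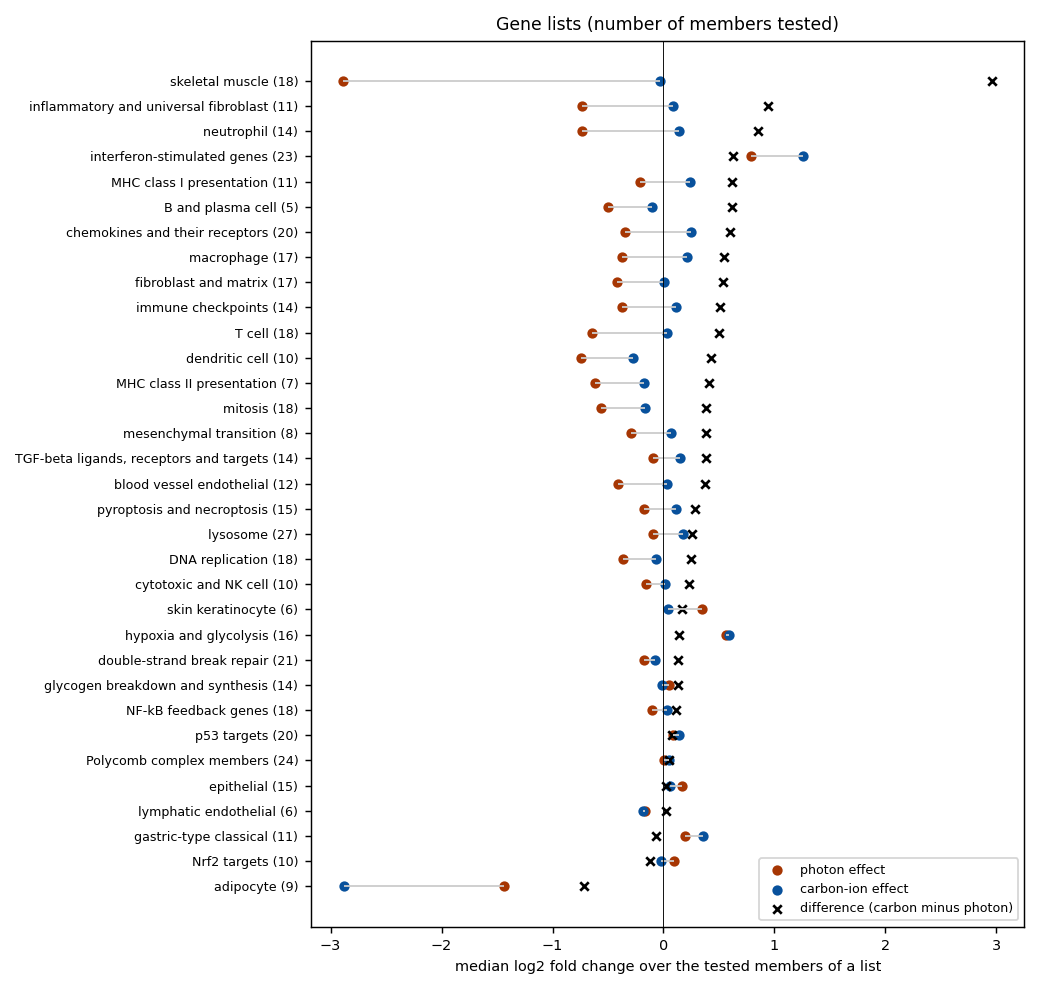
Median log2 fold change over the tested members of each list with at least 5 of them (numbers in brackets), after photons (brown), after carbon ions (blue) and for the difference (cross), ordered by the difference. Skeletal muscle lies farthest right at 2.96, neutrophil markers lie at 0.86, interferon-stimulated genes at 0.63 and p53 targets at 0.07.

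The differences were also uneven along the genome. For each library, the median deviation of log2 CPM from the gene mean was taken over the genes of a chromosome and set against that of all 19712 genes placed on GRCm38 by the GENCODE M21 annotation. The difference of effects on this value was tested for each of 20 chromosomes by a two-sided permutation test with Benjamini-Hochberg adjustment over the 20. Each arm was first centred on its own mean, so this test of the difference is approximate. The chromosome summaries were chosen after seeing the data, which the adjustment does not cover. The difference of effects passed for 7 of 20 chromosomes, while the carbon-ion effect passed for 0, the photon effect for 9 and the difference between controls for 14.

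Chromosome 5 had the largest shift, -0.20 over 1442 genes, with an adjusted p of 8.69e-06 by this permutation test. Photon controls had values between -0.15 and -0.07 and photon-irradiated tumours between 0.03 and 0.17, without overlap. Carbon-ion controls ran from -0.03 to 0.10 and tumours after carbon ions from -0.07 to 0.09, so these groups overlapped. The shift stayed between -0.22 and -0.19 with any library left out and was -0.23 in the M-titled libraries alone. Of the genes on chromosome 5, 25.2% had a difference above 0, against 52.0% of all tested genes, and 0 were called; Camkk2 and Srpk2, both just short of the threshold, lie on it. Chromosome X, with 555 of the 19712 placed genes, had a shift of -0.17 with an adjusted p of 0.00996 by the permutation test. Of the 16 called genes 3 lie there, Phka2, Hs6st2 and B630019K06Rik. Hs6st2, at 1.40, went against the direction of its chromosome. On X the controls of both arms differed by 0.32, with medians of 0.11 in the carbon-ion and -0.20 in the photon arm and no overlap. Chromosomes 2, 9, 12 and 7 had shifts of 0.10, 0.09, 0.11 and 0.05, and chromosome 8 one of -0.09, with adjusted p values of 0.000332, 0.00332, 0.0245, 0.0421 and 0.00121 by the same permutation test.

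**Figure D5:**
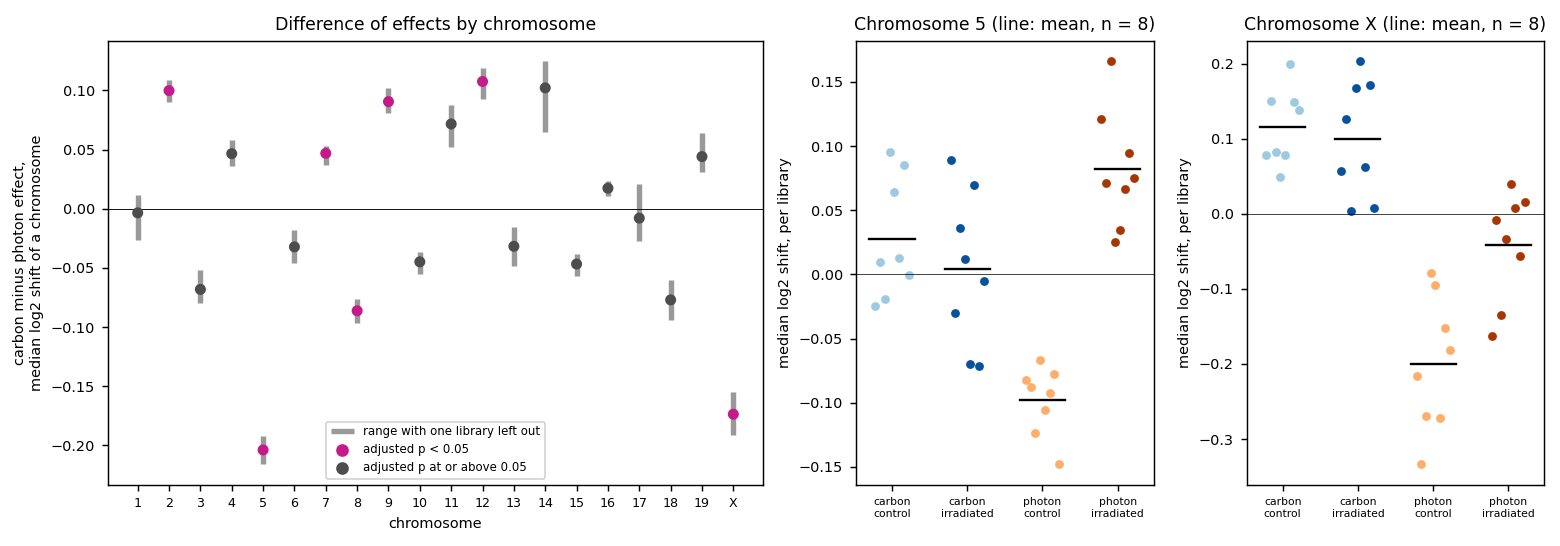
Left, difference of the carbon-ion and photon effects on the median log2 shift of each chromosome, with the range when a library is left out; middle and right, the shift per library on chromosomes 5 and X, with group means as lines. On chromosome 5 the 8 photon controls (-0.15 to -0.07) and the 8 photon-irradiated libraries (0.03 to 0.17) do not overlap.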

How the data were processed

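Bulk RNA-seq was done on RNA of 32 tumours kept in RNAlater, with an Illumina stranded mRNA kit, per the labels' protocols. The authors deposited 1 table of estimated counts per gene symbol, named raw counts, with 55103 rows. FastQC 0.12.0, Trimmomatic 0.32, RSEM 1.3.3 and the mm10 build are named, per the submitters' processing notes; the aligner, annotation release and strand setting are not given in the sources used here. The estimated counts were rounded, which moved library totals by at most 0.00403%; a fit on unrounded values is an added alternative. The labels' treatment field placed each library in its group, and replicate numbers follow the order of accessions.

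The fit used edgeR 4.0.16 under R 4.3.3: filterByExpr with a minimum count of 10, TMM scaling, and 1 quasi-likelihood model with a coefficient per group over all libraries (glmQLFit, glmQLFTest). The Benjamini-Hochberg adjustment ran over all 20474 tested genes, with a threshold of 0.05. Standard errors were derived from the F statistic. CPM is relative to the TMM-scaled total, and log2 CPM used a prior count of 2. Depth was 13891863 to 71645903 estimated counts per library. Counts were simulated with 200 genes of known interaction, drawn from genes with a mean log2 CPM above 2. The change was put in the carbon-ion irradiated group alone, and genes varied independently of each other. The fit gave back 80% of those at a log2 size of 1 and 96% at 2, with 5.38% of calls false. These shares do not cover genes with fewer reads, such as Cebpe and Cyp24a1, or genes that vary together.

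Named are all genes past the threshold, then further genes by p up to 30, passing over genes without a settled name, plus the members of each list that passed or otherwise those with the smallest p. Some genes that this rule selects are not reported here. The 35 lists hold 523 genes, of which 482 were tested. The comparison, members, lists and rules were chosen with earlier results of these data known, and the chromosome summaries were chosen after seeing the data. For those, each arm was centred and beam labels were then exchanged among irradiated libraries and, separately, among controls, over all 165636900 reassignments, and single effects over all 12870 splits. Coordinates are from GENCODE M21 on GRCm38, the assembly of mm10, which matched 19712 of the 20474 genes. Alternatives were other scalings and filters, DESeq2 1.42.0, limma 3.58.1 with voom, title letters, marker scores as covariates and single libraries left out.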

Additional observations from a re-analysis of the deposited data

Results flagged for a closer look

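Genes are listed here because the test of the difference between the carbon-ion and the photon effect passed for them. On the log2 scale this difference was -1.17 for Cbx7, 2.08 for Gm49980, 1.96 for Cebpe, -0.68 for Arhgef28, -0.62 for Phka2, -0.54 for Focad, 0.66 for Ctsc and 1.29 for Tnip3. It was -0.54 for Gsdme, 0.88 for Cnbd2, -0.57 for Fbxw4, 0.90 for Dynlt1b, -0.90 for B630019K06Rik, -2.40 for Cyp24a1, 1.40 for Hs6st2 and -0.60 for Sorbs2. The same difference of effects passed on the median shift of chromosomes 2 (0.10), 5 (-0.20), 7 (0.0468), 8 (-0.0863), 9 (0.0905), 12 (0.11) and X (-0.17), by the permutation test adjusted over 20 chromosomes.

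Single libraries stood apart from the other 7 of their group in 6 of 104 checks. In these, the gap to the nearest library exceeded 0.526 of the group's range, and chance flags about 1 in 20. For genes the gap was taken on log2 CPM, while the values below are plain CPM. Carbon-ion control replicate 5 had Cbx7 at 29.1 CPM, with the others at 37.8 to 46.7, and Hoxa4 at 0.803 CPM, with the others at 0.209 to 0.355. Carbon-ion control replicate 4 had Sorbs2 at 195 CPM beside 144 to 161, and Il5ra at 4.93 CPM beside 0.652 to 1.64. Photon control replicate 2 had Il5ra at 2.25 CPM beside 6.53 to 16.8. Photon-irradiated replicate 8 had Cyp24a1 at 0.270 CPM beside 0.418 to 0.522.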

How the results depend on the processing

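The count of 16 genes stayed within 1.5 times under RLE scaling (17), limma voom (23), a robust fit (16), the title letter as a covariate (16) and unrounded counts (16). It was 94 under upper quartile scaling, 62 with at least 1 CPM in 8 libraries, 270 by DESeq2 (139 higher and 131 lower), 379 by voom with sample weights (151 higher and 228 lower) and 4 without a filter, where 38319 genes were tested. Upper quartile scaling also moved the split of higher and lower genes from 351 and 430 to 566 and 394 for photons and from 726 and 315 to 519 and 537 for the irradiated groups. Marker scores as covariates left 7 (skeletal muscle), 7 (epithelial), 6 (fibroblast and matrix) and 0 (macrophage, with 1298 genes at an unadjusted p under 0.05). In the M-titled libraries alone 1 gene passed, Il11, a cytokine of fibroblasts, with a difference of 3.93 and an adjusted p of 0.0311 against 2.62 and 0.0865 in all libraries, and 3013 had an unadjusted p under 0.05. All 16 genes kept their sign there, at 0.799 to 1.22 times their size in all libraries, and likewise with the muscle (0.924 to 1.13), epithelial (0.956 to 1.04), fibroblast (0.83 to 1.13) and macrophage (0.659 to 0.958) scores. The difference between controls held 973 genes in the M-titled libraries in place of 1871. The medians of the B and plasma cell and skin keratinocyte lists reversed in those libraries, from 0.62 (5 genes tested) to -0.0014 (7 genes tested) and from 0.16 to -0.23; with a library left out they ran from 0.06 to 0.53 and from -0.41 to 0.33. Other list medians moved by over 1.5 times there without a change of sign, to 0.29 for hypoxia and glycolysis, 0.18 for NF-kB feedback, 0.12 for p53 targets, 0.19 for epithelial, 0.08 for glycogen, -0.06 for Nrf2 targets, -0.006 for gastric-type, -0.34 for erythroid and -1.22 for adipocyte genes; the T cell, skeletal muscle and lymphatic values stand with those lists. The cause of these changes was not tested. With each library left out in turn, the counts ranged from 5 to 108 for the difference of effects, 0 to 5 for carbon ions, 239 to 1656 for photons, 1178 to 2196 for the controls and 108 to 2159 for the irradiated groups. For the difference of effects, the count was 108 without photon control replicate 2, 101 without carbon-ion irradiated replicate 2, 70 without carbon-ion control replicate 5, 47 without carbon-ion irradiated replicate 7, 46 without photon control replicate 4 and 27 without photon-irradiated replicate 5. It stayed within 1.5 times without carbon-ion control replicate 1, carbon-ion irradiated replicates 1, 3 and 4, photon control replicates 6 and 7 or photon-irradiated replicate 1, and was 5 to 10 without any other library. The extremes of the photon count came without photon control replicates 3 and 2, and those of the irradiated groups without photon-irradiated replicate 3 and carbon-ion irradiated replicate 3. No paired analysis was possible because the groups compared share at most 1 title number, and replicate numbers only follow accession order. Cyp24a1 (1.3 to 24.3 estimated counts per library) and Cebpe (4.9 to 70.7) rest on few reads, which limits their precision.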

Other observations

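Dendritic cell markers had a median effect of -0.27 after carbon ions and -0.74 after photons, with 3 of 10 past the threshold in the photon arm, beside 3.81% of all tested genes, and 0 in the carbon-ion arm, where 0 of all tested genes passed. The difference of the effects had a median of 0.42 with 7 of 10 above 0 and 0 called. Itgae, an integrin of cross-presenting dendritic cells and of tissue-resident T cells, had means of 6.43 and 3.88 CPM in the carbon-ion controls and irradiated tumours and of 7.90 and 2.83 CPM in the photon ones, with a difference of 0.76 ± 0.30 and an adjusted p of 0.288. Xcr1, the chemokine receptor of those dendritic cells, had effects of -1.05 and -1.13 and a difference of 0.08 ± 0.54 with an adjusted p of 0.956. Of 10 cytotoxic and natural killer cell markers 7 lay above 0 with a median of 0.23, which ran from 0.10 to 0.55 with a library left out.

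Among 6 lymphatic endothelial markers the median difference was 0.02 with 3 above 0, and it ran from -0.33 to 0.25 with a library left out, was -0.04 under upper quartile scaling, as was that of all genes, and was 0.38 with 5 of 6 above 0 in the M-titled libraries alone. Lyve1, a hyaluronan receptor of lymphatic vessels and some macrophages, fell from a mean of 11.6 CPM to 2.17 CPM in the photon arm (log2 fold change of -2.40 ± 0.64, adjusted p of 0.0310), with a difference of 2.16 ± 0.87 with an adjusted p of 0.287. The 11 genes of the gastric-type classical tumour programme had a median difference of -0.07 with 5 above 0, which ran from -0.31 without carbon-ion irradiated replicate 7 to 0.26 without carbon-ion control replicate 6 and was 0.15 with the epithelial score as a covariate. Tff1, a secreted mucosal peptide, had means of 17.6 and 22.7 CPM in the carbon-ion controls and irradiated tumours and of 4.75 and 19.3 CPM in the photon ones, so the photon controls were low, and its difference was -1.64 ± 0.70 with an adjusted p of 0.315. Among 10 Nrf2 targets, which act in antioxidant defence, the median was -0.12 (-0.23 to -0.03 with a library left out) with 3 above 0, and 0 members of these lists were called.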
